A study of Homo sapiens with 6 samples.

Results

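The genes described here are the protein-coding genes of the deposited count table whose symbol starts with MRPL or MRPS, the names given to proteins of the mitochondrial ribosome. Of 58735 genes in the table, 78 met this rule, 49 MRPL genes (large subunit by name) and 29 MRPS genes (small subunit by name). They were measured by RNA sequencing in ARPE-19, an established line of human retinal pigment epithelial cells, in 3 NC libraries, whose genotype is given as WT, and 3 libraries labelled OE CD51 ICD, an overexpression of CD51-ICD. CD51 is the integrin alpha V chain, encoded by ITGAV, and the labels do not spell out ICD. The labels name no vector or clone. They also leave unsaid whether replicates were grown separately, and the spread behind each p-value may therefore be technical. An RNA extraction reagent and a column kit are both named without saying which libraries each served, and any difference of kit between the groups cannot be told apart from the groups.

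The mitochondrial ribosome sits in the matrix and makes the small set of proteins encoded by mitochondrial DNA, all of them subunits of the respiratory chain and ATP synthase. Its RNAs are transcribed from mitochondrial DNA, but all of its proteins are made from nuclear genes, translated in the cytosol and imported. The small subunit binds the messenger RNA and reads its codons, and the large subunit joins the amino acids. Retinal pigment epithelium is a tissue with a high mitochondrial demand.

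The libraries held 13616694 to 16934668 counts. ITGAV, the labelled target, was at a mean of 98.4 ± 12.9 CPM (counts scaled to library size) in the NC libraries and 448 ± 83.5 CPM in the OE CD51 ICD libraries (SD, n = 3 each; log2 fold change 2.18 ± 0.11 SE, adjusted p = 1.47e-16). What part of that rise comes from the construct was not tested. Of the markers of retinal pigment epithelium, KRT8 and KRT18 were abundant and RPE65 and TTR, which mark the mature tissue, had no count in any library. The 12 markers, of which 8 had enough counts to be tested, summed to 5156 to 5613 CPM in NC, against 4625 to 5351 CPM in OE CD51 ICD. These sums include KRT8 and KRT18. Marker sums of other cell types were 3.11 to 4.67 against 31.3 to 37.1 CPM for microglia and macrophages, mostly from CSF1R, and 213 to 238 against 374 to 415 CPM for fibroblasts, mostly from PDGFRB. Endothelial markers summed to 0.868 to 1.42 against 0.132 to 0.547 CPM, photoreceptor and neuron markers to 4.53 to 5.17 against 4.29 to 6.83 CPM, and 4 of 5 lymphocyte markers had no count. The part of these differences in the results below was not tested.

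Many messenger RNAs of the mitochondrial ribosome were lower in OE CD51 ICD cells, and few were higher. All 78 genes had enough counts to be tested, and 45 were lower, 2 were higher and 31 did not pass (edgeR's quasi-likelihood test, adjusted p under 0.05 over 13787 genes). That is 57.7% lower, where 25.8% of all tested genes were lower and 25.2% were higher. The shift was small for most genes: the median log2 fold change was -0.32 over the 78 genes and 0.01 over all genes tested, and 71 of the 78 values were below 0 against 49.2% of all genes. In 44 genes every OE CD51 ICD library lay below every NC library, which held for 29.5% of all genes. In 2 genes, MRPL16 and MRPL48, every OE CD51 ICD library lay above every NC library, against 28% of all genes. Falls of at least 1.5-fold were called in 11 genes (13.3% of all genes) and a fall of at least 2-fold in 1 gene, MRPS24 (5.83% of all genes). Together the 78 genes took 0.332%, 0.332% and 0.314% of the counts in NC libraries 1 to 3 and 0.237%, 0.242% and 0.262% in OE CD51 ICD libraries 1 to 3. In bulk RNA, fewer cells of a kind and less RNA per cell cannot be told apart.

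**Figure D1:**
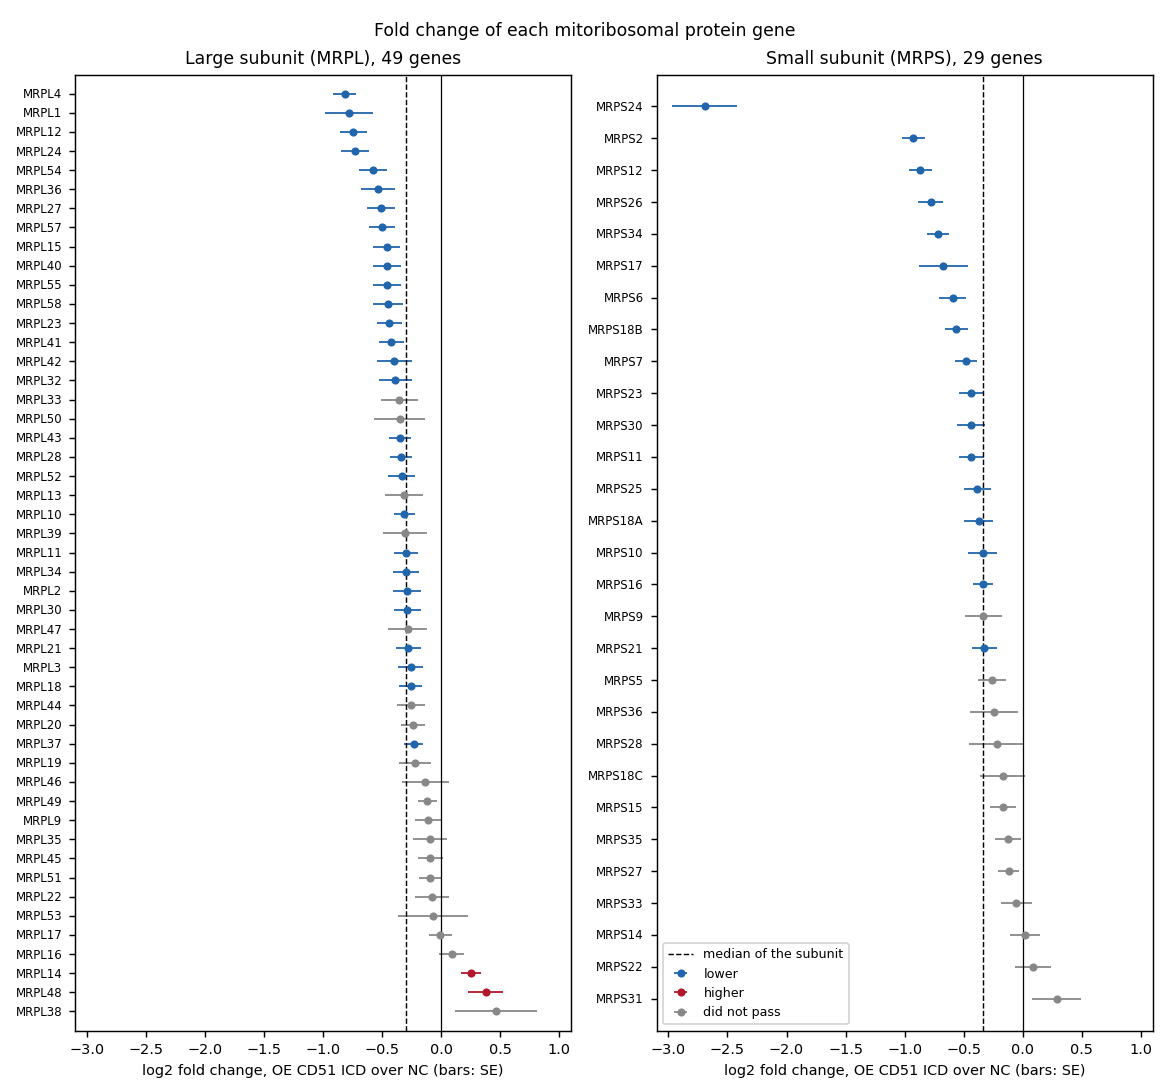
Log2 fold change of each of the 78 mitoribosomal protein genes, OE CD51 ICD over NC, with its standard error as a bar; large subunit at left, small subunit at right. Blue genes were lower, red genes higher and grey genes did not pass at an adjusted p of 0.05, and the dashed line is the median of the subunit (-0.30 large, -0.34 small). MRPS24 lies far to the left of the other genes.

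In the small subunit, 17 of 29 genes were lower (58.6%, against 25.8% of all tested genes). Of the rest, 0 were higher (against 25.2%) and 12 did not pass. The median log2 fold change was -0.34 (quartiles -0.56 and -0.17). At an unadjusted p under 0.05, 0 were higher, and DESeq2 and limma-voom each called 0 higher. An adjusted p is never below the unadjusted p, so at least 25.2% of all tested genes were higher at that unadjusted threshold. Of all 13787 genes, DESeq2 called 3225 and limma-voom 3451 higher. MRPS24 (chr7:43866558-43869893, GRCh38), which lies beside the messenger RNA path, was at 6.42, 7.36 and 5.81 CPM in the NC libraries and at 1.45, 0.820 and 0.715 CPM in the OE CD51 ICD libraries. The groups were far apart, with a log2 fold change of -2.69 ± 0.27 (SE, adjusted p = 1.60e-09), a 6.47-fold fall. It was among the least abundant small subunit genes, with 301 counts in NC and 44 in OE CD51 ICD, and 23.2% of its exon bases are shared on the same strand with the read-through gene URGCP-MRPS24, which had 1 count.

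MRPS2 (chr9:135499984-135504673), at the junction of the head and body of the subunit, was at 83.0, 79.4 and 86.0 CPM in NC, against 39.8, 42.9 and 48.1 CPM in OE CD51 ICD. The fall was 1.90-fold (log2 fold change -0.93 ± 0.09, adjusted p = 1.51e-09) with no overlap between groups. MRPS12 (chr19:38930548-38933162), the counterpart of the bacterial protein that guards decoding accuracy, was at 69.1, 68.6 and 68.9 CPM in NC, against 35.9, 36.1 and 41.3 CPM in OE CD51 ICD. The NC libraries were nearly equal and all OE CD51 ICD libraries lay far below them (log2 fold change -0.87 ± 0.09, adjusted p = 6.83e-09). MRPS12 shares 16.3% of its exon bases with SARS2 on the opposite strand, the mitochondrial seryl-tRNA synthetase, whose own log2 fold change was -0.93. Whether the counting used strand is unknown from the labels, and reads from such overlaps cannot be assigned to either gene. SARS2 had 287 counts in all, against 4833 for MRPS12.

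The small subunit genes with the highest level per length in NC were MRPS34, MRPS26 and MRPS16. MRPS34, which stabilises the small subunit and its ribosomal RNA, was at 119, 118 and 115 CPM in NC, against 64.1, 65.8 and 84.5 CPM in OE CD51 ICD. OE CD51 ICD replicate 3 stood above the other OE CD51 ICD libraries yet below every NC library (log2 fold change -0.72 ± 0.09, adjusted p = 2.24e-07). MRPS26, a subunit protein without a bacterial counterpart, was at 53.4 ± 7.40 CPM in NC, against 31.1 ± 0.726 CPM in OE CD51 ICD (log2 fold change -0.78 ± 0.11, adjusted p = 4.20e-07). MRPS16, a conserved protein of the subunit, was at 119, 131 and 124 CPM in NC, against 96.7, 91.99 and 108 CPM in OE CD51 ICD, a smaller fall without overlap (log2 fold change -0.33 ± 0.09, adjusted p = 0.00162).

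Some MRPS names do not match the place of the protein. MRPS30 and MRPS18A are built into the large subunit, and MRPS36 belongs to the oxoglutarate dehydrogenase complex. MRPS30 was at 27.8, 28.1 and 27.1 CPM in NC, against 18.3, 21.2 and 21.7 CPM in OE CD51 ICD, with no overlap (log2 fold change -0.44 ± 0.12, adjusted p = 0.00237). MRPS36 was at 6.06 ± 1.31 CPM in NC, against 5.08 ± 0.621 CPM in OE CD51 ICD and did not pass (adjusted p = 0.323). The MRPS18 paralogs sit at different places, MRPS18B and MRPS18C in the small subunit and MRPS18A in the large one. MRPS18B fell from 68.0 ± 5.59 to 46.1 ± 4.03 CPM (log2 fold change -0.56 ± 0.10, adjusted p = 1.55e-05), and MRPS18C, at 6.85 ± 1.0 and 6.10 ± 0.779 CPM, did not pass (adjusted p = 0.472). MRPS18A fell from 26.4 ± 1.92 to 20.4 ± 2.77 CPM (log2 fold change -0.37 ± 0.12, adjusted p = 0.0128). The MRPS18A call was lost without NC replicate 2 (adjusted p = 0.0796), without OE CD51 ICD replicate 1 (0.150) and with the trend on GC content removed (0.117). With that trend removed, MRPS36 and MRPS18C passed as lower (adjusted p = 0.0361 and 0.0421).

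In the large subunit, 28 of 49 genes were lower (57.1%, against 25.8% of all tested genes). Of the rest, 2 were higher (4.08%, against 25.2%) and 19 did not pass. The median log2 fold change was -0.30 (quartiles -0.44 and -0.13). MRPL4 (chr19:10251901-10260045), a conserved protein near the exit tunnel, was at 91.3, 93.2 and 95.6 CPM in NC, against 47.2, 50.5 and 61.4 CPM in OE CD51 ICD. It was the large subunit gene with the largest fall, without overlap between groups (log2 fold change -0.82 ± 0.10, adjusted p = 2.47e-08). MRPL12 (chr17:81703357-81707526), the stalk protein that also binds the mitochondrial RNA polymerase, was at 38.4, 34.9 and 31.4 CPM in NC, against 19.6, 20.0 and 23.1 CPM in OE CD51 ICD (log2 fold change -0.74 ± 0.12, adjusted p = 4.16e-06). Its groups did not overlap, and 68.2% of its exon bases are shared with the read-through gene AC139530.2, which had 0 counts. MRPL24, a conserved protein at the tunnel exit, was at 56.7, 59.5 and 53.1 CPM in NC, against 35.4, 26.4 and 40.3 CPM in OE CD51 ICD (log2 fold change -0.73 ± 0.12, adjusted p = 4.57e-06), with OE CD51 ICD replicate 2 lowest. MRPL1, a stalk protein beside the tRNA exit site, was at a low level of 8.27, 8.0 and 6.15 CPM in NC, against 3.88, 5.47 and 3.72 CPM in OE CD51 ICD, again without overlap (log2 fold change -0.78 ± 0.20, adjusted p = 0.00195).

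The genes that rose were both in the large subunit. MRPL48 (chr11:73787316-73865133), a protein of the central protuberance, was at 10.1, 11.7 and 10.7 CPM in NC, against 13.4, 14.7 and 14.1 CPM in OE CD51 ICD. The groups did not overlap, and the rise was small (log2 fold change 0.38 ± 0.15, adjusted p = 0.0321). The MRPL48 call was lost without NC replicate 1 (adjusted p = 0.111), NC replicate 3 (0.0631), OE CD51 ICD replicate 1 (0.0520) or OE CD51 ICD replicate 2 (0.0654), and in 4 other settings, with a range of 0.0179 to 0.200 over all of them. MRPL14 (chr6:44113454-44127457), which lies at the interface of the subunits, was at 111, 100 and 97.1 CPM in NC, against 123, 111 and 135 CPM in OE CD51 ICD (log2 fold change 0.25 ± 0.09, adjusted p = 0.0176). Its groups overlapped, and its call was lost without NC replicate 2 (adjusted p = 0.0760), NC replicate 3 (0.0745) or OE CD51 ICD replicate 3 (0.0594) and with scaling by library size (0.0624). The count of higher genes was 0 without NC replicate 3 and 1 without any 1 of the other libraries.

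MRPL14, MRPL37 and MRPL49 had the highest levels per length of the large subunit in NC. MRPL37, which has no bacterial counterpart, was at 184, 178 and 189 CPM in NC, against 157, 142 and 172 CPM in OE CD51 ICD (log2 fold change -0.23 ± 0.08, adjusted p = 0.0209). Its groups did not overlap, but the call was lost without NC replicate 1 (adjusted p = 0.0548), NC replicate 3 (0.0602), OE CD51 ICD replicate 1 (0.1001) or OE CD51 ICD replicate 2 (0.144), with upper-quartile scaling (0.0550) and with the trend on gene length removed (0.182). MRPL49 was at 142 ± 6.58 CPM in NC, against 131 ± 7.74 CPM in OE CD51 ICD and did not pass (adjusted p = 0.239), though it passed as lower with scaling by library size (0.0459). At the other end, MRPL38 at 1.604 ± 0.575 and 2.22 ± 1.06 CPM (adjusted p = 0.271) and MRPL46 at 5.54 ± 0.639 and 5.07 ± 0.665 CPM (adjusted p = 0.605) had the lowest levels per length, and neither passed.

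**Figure D2:**
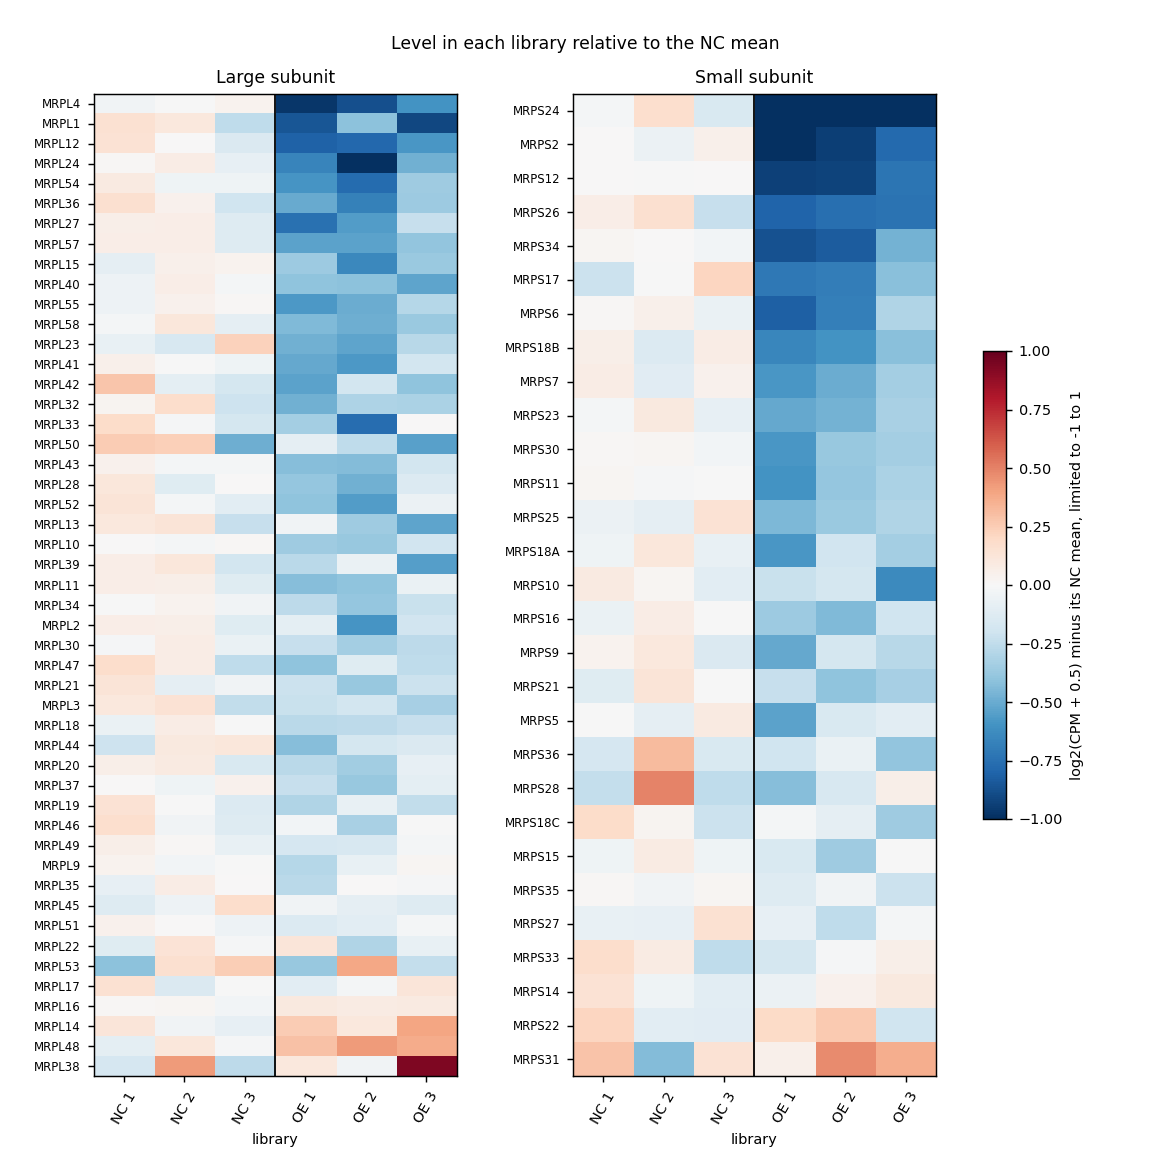
Level of each mitoribosomal protein gene (rows) in each library (columns), as log2(CPM + 0.5) minus the gene's mean over the NC libraries; blue is below that mean, red above it, and the colour stops at -1 and 1. The OE CD51 ICD columns are blue for most genes of both subunits, and OE CD51 ICD replicate 3 is paler than the others in many rows.

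The fall showed in each OE CD51 ICD library. Of the 78 genes, 71 lay below their NC mean in OE CD51 ICD replicate 1, 70 in replicate 2 and 67 in replicate 3. In NC libraries 1 to 3 the counts were 28, 31 and 57, so NC replicate 3 also lay below that mean in most genes. The median log2 difference from the NC mean was 0.02, 0.03 and -0.05 in NC libraries 1 to 3. In OE CD51 ICD libraries 1 to 3 it was -0.37, -0.37 and -0.25. These counts were not made over all genes. Replicate 3 was the highest of the OE CD51 ICD libraries in 48 genes, against 13 for replicate 1 and 17 for replicate 2. In NC, replicate 3 was highest in 14 genes and replicates 1 and 2 in 32 each. The order of the genes was nearly the same in both groups: over the 78 genes, the log2 levels per kb in NC and OE CD51 ICD had a Pearson r of 0.97 and a Spearman rho of 0.98, given as a description since all points share the same libraries. Levels per kb in NC spanned 245-fold, from 0.438 CPM per kb for MRPL38 to 107 for MRPL14, with a median of 14.3. MRPL38 shares 41.1% of its exon bases with other genes, and the deposited lengths count all annotated exon bases of a gene. The part of the span that comes from these was not tested.

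The subunits were compared by the sum of their genes' levels per kb in each library. The large subunit summed to 994.6, 969.0 and 936.3 CPM per kb in NC and 795.3, 762.1 and 883.1 in OE CD51 ICD, a fall of the mean from 966.6 ± 29.3 to 813.5 ± 62.5 (-15.8%). The small subunit summed to 506.5, 511.7 and 494.7 in NC and 333.7, 345.2 and 378.5 in OE CD51 ICD, a fall of the mean from 504.3 ± 8.70 to 352.4 ± 23.3 (-30.1%). The sums of both subunits were lower in every OE CD51 ICD library than in every NC library. The ratio of large to small was 1.96, 1.89 and 1.89 in NC and 2.38, 2.21 and 2.33 in OE CD51 ICD, with means of 1.92 ± 0.041 and 2.31 ± 0.091, a 1.20-fold change without overlap.

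A few abundant genes carried much of that ratio. MRPL14, which was higher, made up 11.1% of the large subunit sum in NC and 15.7% in OE CD51 ICD, and MRPS34, which was lower, made up 21.2% and 18.4% of the small subunit sum. Without these 2 genes the ratio changed from 2.16 to 2.38 (1.102-fold), and without the 3 most abundant genes of each subunit from 2.43 to 2.59 (1.07-fold); both were tried after the values were seen. In the main fit the median log2 fold changes of the subunits lay close together, at -0.30 (large) and -0.34 (small). With the trend on GC content removed they were -0.31 and -0.46. With the trend on gene length removed they were -0.22 and -0.33, and without NC replicate 1 -0.27 and -0.39. Over genes that share under 10% of their exon bases they were -0.32 and -0.33. With genes placed by structure, 30 of 51 large subunit genes were lower (58.8%, median -0.30) and 15 of 26 small subunit genes (57.7%, median -0.34). Over all tested genes 25.8% were lower.

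**Figure D3:**
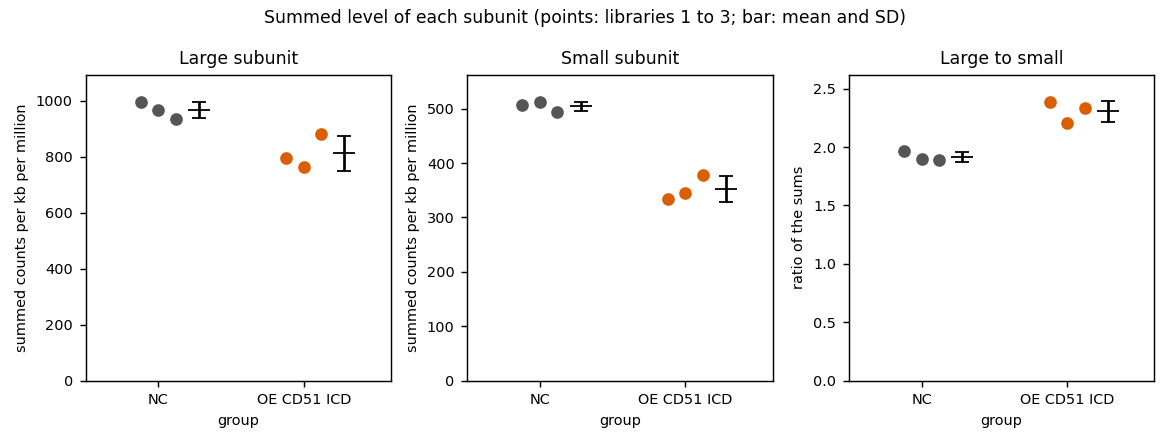
Summed level of the large subunit genes, of the small subunit genes and the ratio of the sums, in each library (points, replicates 1 to 3 from left to right; bar, mean and SD of the group). Both sums are lower in OE CD51 ICD, and the ratio is 1.92 ± 0.041 in NC and 2.31 ± 0.091 in OE CD51 ICD.

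The 78 genes were also divided by GC content, chromosome and abundance. GC classes used the longest transcript of each gene, with class limits set after the values were seen. Of 20 mitoribosomal genes with at least 55% GC, 18 were lower (90.0%, against 44.3% of all tested genes in the class). Of 28 genes with 45% to 55% GC, 16 were lower (57.1% against 25.3%), and of 30 genes under 45% GC, 11 were lower (36.7% against 11.2%). The medians were -0.45, -0.30 and -0.27 in these classes, against -0.25, -0.01 and 0.24 for all tested genes. With each library's trend on GC content removed, 54 of the 78 genes were lower, 38 of them among the 45, where 27.5% of all tested genes were lower in that setting. The medians were then -0.31 in the large subunit and -0.46 in the small subunit.

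**Figure D4:**
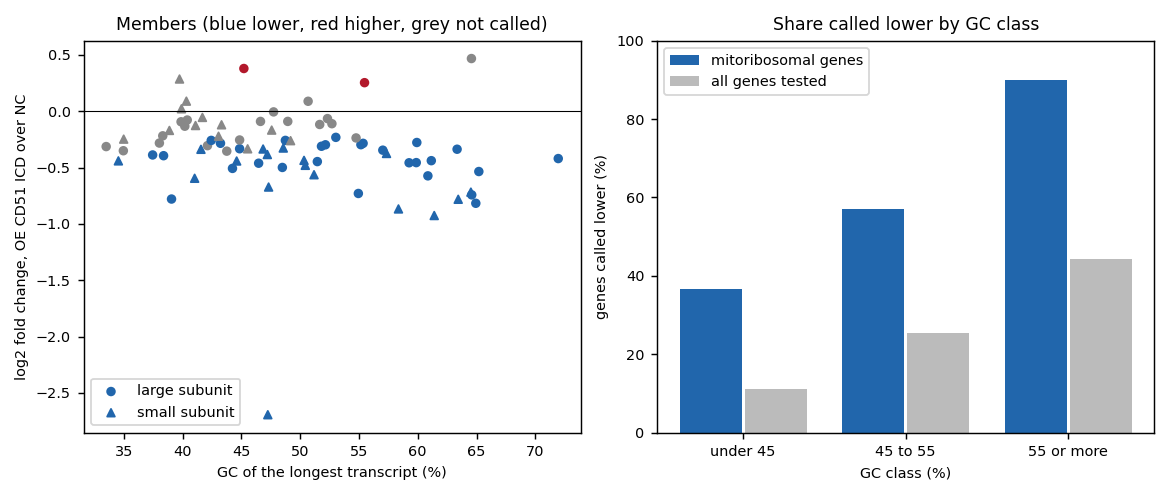
Left, log2 fold change of each mitoribosomal protein gene against the GC content of its longest transcript (circles, large subunit; triangles, small subunit; blue lower, red higher, grey did not pass). Right, percent of genes called lower in each GC class for mitoribosomal genes (blue) and all tested genes (grey); the blue bar is higher in each class, from 36.7% against 11.2% to 90.0% against 44.3%.

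Chromosome 11 genes stood at higher values over the whole table, with 320 of 792 tested genes higher and 137 lower (median 0.21). Of the 7 mitoribosomal genes there, 3 (MRPL23, MRPL11 and MRPL21) were lower and 1 (MRPL48) was higher, with a median of -0.12. The other 71 genes had 42 lower and 1 higher (median -0.33). All 4 genes on chromosome 19 (MRPL4, MRPL54, MRPL34 and MRPS12) were lower, with a median of -0.69, where 368 of all 947 tested genes there were lower (38.9%, median -0.18). On chromosome 17, 6 of 8 were lower, where 318 of 861 tested genes were (36.9%). Of the 22 genes at or above 50 CPM in NC, 17 were lower (77.3%, against 46.7% of all tested genes in the class). Between 10 and 50 CPM 25 of 44 were lower (56.8% against 27.3%), and under 10 CPM 3 of 12 (25% against 11.9%). Of 52 genes that share under 10% of their exon bases with another gene, 31 were lower (59.6%) and 2 higher (median -0.33). Over all tested genes 25.8% were lower. Reads can also fall on copies of these genes: 75 annotated pseudogenes of the family held 357 counts in all, 0.138% of the counts of the 78 genes.

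Cytosolic ribosomal proteins, the RPL and RPS genes, served for comparison. Of 82 tested, 30 were lower (36.6%, against 25.8% of all tested genes) and 4 higher (4.88%, against 25.2%), with a median log2 fold change of -0.15. These genes are abundant, with a median level of 578 CPM in NC. Of all tested genes at or above 50 CPM in NC, 46.7% were lower and 22.2% higher, with a median of -0.17. Against that class the cytosolic set showed no excess of lower genes.

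Promoters are shown as a description, and whether they have a part in the falls was not tested. RefSeq windows (GRCh38.p14, 250 bases before to 50 after a start) were matched by symbol for 69 of the 78 genes, 85 windows in all. Below are the 130 bases before and 30 after the start of MRPS24 (chr7:43869488-43869647, minus strand), MRPS12 (chr19:38930814-38930973, plus strand), MRPS34 (chr16:1773105-1773264, minus strand) and MRPL48 (chr11:73787744-73787903, plus strand), 3 genes that fell and 1 that rose. Capitals mark matches, on either strand, to CCGGAAG, an ETS-type motif, AAGATGGCG, a YY1-type motif, or GCATGCGC, an NRF1-type motif.
MRPS24: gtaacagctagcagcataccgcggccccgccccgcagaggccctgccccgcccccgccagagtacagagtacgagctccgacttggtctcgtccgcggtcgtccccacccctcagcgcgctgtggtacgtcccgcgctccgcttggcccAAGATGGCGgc
MRPS12: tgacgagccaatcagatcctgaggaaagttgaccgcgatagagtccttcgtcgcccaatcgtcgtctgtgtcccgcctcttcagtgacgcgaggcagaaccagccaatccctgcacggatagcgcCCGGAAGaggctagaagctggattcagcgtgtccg
MRPS34: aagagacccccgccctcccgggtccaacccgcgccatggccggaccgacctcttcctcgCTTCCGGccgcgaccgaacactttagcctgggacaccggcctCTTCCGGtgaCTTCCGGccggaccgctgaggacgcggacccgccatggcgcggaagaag
MRPL48: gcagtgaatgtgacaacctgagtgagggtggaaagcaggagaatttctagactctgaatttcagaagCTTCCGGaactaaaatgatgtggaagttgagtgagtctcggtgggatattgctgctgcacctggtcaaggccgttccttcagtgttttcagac
MRPS24 holds a YY1-type match just after its start, MRPS12 and MRPL48 hold 1 ETS-type match each, and MRPS34 holds 3. These promoters are examples and do not stand for all genes that fell. MRPS2, MRPL4, MRPL1, MRPL12 and MRPL24, also among the largest falls, held no match to these motifs in their windows. In all, 40 of the 69 genes held at least 1 of these motifs, against 30.4% of tested genes with a window.

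Motifs were searched on both strands of the 300-base windows, 12 in all, chosen with the fold changes known and after longer forms of 4 of them had been looked at. The ETS-type motif CCGGAAG was in 30 of 69 genes (43.5%), against 22.4% of tested genes and 12.2% of all genes with a window. The YY1-type motif AAGATGGCG was in 13 genes (18.8%), against 4.79% of tested and 2.14% of all genes. The GC box GGGCGG was in 42 genes (60.9%), against 77.9% and 48.3%, and the NRF1-type motif GCATGCGC was in 6 genes (8.70%), against 6.53% and 3.68%. The E-box CACGTG was in 9 genes (13.0%, against 12.6% and 8.77%), the box CCAAT in 23 genes (33.3%, against 42.9% and 39.7%) and the box TATAAA in 3 genes (4.35%, against 7.86% and 14.0%). The CRE motif TGACGTCA was in 1 gene (3.82% of tested genes), and so were the E2F-type motifs TTTCGCGC (1.07% of tested genes) and TTTCCCGC (3.31% of tested genes). The motif CTCGCGAG was in 2 genes (2.45% of tested genes) and the ZNF143-type motif ACTACAATT in 0 (0.757% of tested genes). Over the 85 windows, 1 match overlapped a match of another motif. Of the 30 genes with the ETS-type motif 18 were lower and of the 39 without it 22, with median log2 fold changes of -0.33 and -0.35. For the YY1-type motif 9 of 13 genes and 31 of 56 were lower (medians -0.37 and -0.30), and for the E-box 3 of 9 and 37 of 60 (medians -0.12 and -0.34). Over all tested genes 25.8% were lower. That share was not split by motif, so these counts do not tell what a motif adds. A match is a description of the letters and not a bound site.

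The other proteins and the RNAs of the mitochondrial ribosome differed among themselves. Of 5 subunit proteins without an MRP symbol, 2 were lower (40%, against 25.8% of all tested genes) and 0 higher (against 25.2%). The other 3 did not pass, and the median was -0.13. So few genes do not tell this share from that of the whole table. GADD45GIP1, of the large subunit, fell from 83.8 ± 3.47 to 57.2 ± 6.09 CPM (log2 fold change -0.55 ± 0.09, adjusted p = 1.08e-05), and AURKAIP1, of the small subunit, from 121 ± 5.01 to 85.4 ± 11.8 CPM (adjusted p = 3.68e-05). DAP3, a GTP-binding protein of the small subunit, was at 68.6 ± 3.004 and 67.9 ± 2.94 CPM and did not pass (adjusted p = 0.906), and neither did CHCHD1 or PTCD3. MT-RNR1, the ribosomal RNA of the small subunit, was at 395 ± 71.4 CPM in NC, against 326 ± 17.96 CPM in OE CD51 ICD (log2 fold change -0.28 ± 0.09, adjusted p = 0.0151). Its call was lost without NC replicate 3 (log2 fold change -0.12, adjusted p = 0.255) or OE CD51 ICD replicate 1 (adjusted p = 0.0758) and in limma on FPKM (0.0880). All genes of mitochondrial DNA together took 3.86%, 3.98% and 5.07% of the counts in NC libraries 1 to 3. In OE CD51 ICD libraries 1 to 3 they took 4.07%, 3.60% and 3.90%, so NC replicate 3 was the highest library. MT-RNR2, the large subunit RNA, was at 2816 ± 211 CPM in NC, against 2460 ± 65.4 CPM in OE CD51 ICD (log2 fold change -0.19 ± 0.08, adjusted p = 0.0383). That call was lost without NC replicate 1 (adjusted p = 0.0679), NC replicate 3 (0.165), OE CD51 ICD replicate 1 (0.116) or OE CD51 ICD replicate 2 (0.104), and in 7 other settings, with values up to 0.223. The libraries were made with a kit for messenger RNA, and how it takes up these RNAs is not given in the sources used here.

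Factors that process the ribosomal RNA and assemble the subunits had 13 of 29 genes lower (44.8%) and 0 higher (median -0.21; edgeR's quasi-likelihood test), against 25.8% and 25.2% of all tested genes. At an unadjusted p under 0.05 also 0 were higher, against at least 25.2% of all tested genes, and DESeq2 and limma-voom each called 0 higher. RBFA, which binds the small subunit RNA during its maturation, fell from 16.7 ± 2.35 to 8.69 ± 0.744 CPM (log2 fold change -0.94 ± 0.15, adjusted p = 7.90e-06). DHX30, an RNA helicase of mitochondrial RNA granules, fell from 226 ± 14.0 to 127 ± 11.6 CPM (log2 fold change -0.82 ± 0.08, adjusted p = 1.77e-09). Of 18 translation factors, 4 were lower (22.2%) and 1 was higher, with a median of -0.00, and the share of lower genes was near the 25.8% of all tested genes. TUFM, the mitochondrial elongation factor Tu, fell from 405 ± 8.69 to 247 ± 25.7 CPM (log2 fold change -0.71 ± 0.08, adjusted p = 1.72e-08), and TSFM, its exchange factor, from 29.6 ± 2.65 to 18.1 ± 1.73 CPM (adjusted p = 1.54e-05). MTRF1L, a release factor, rose from 7.58 ± 0.607 to 11.4 ± 1.103 CPM (log2 fold change 0.59 ± 0.16, adjusted p = 0.00302).

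**Figure D5:**
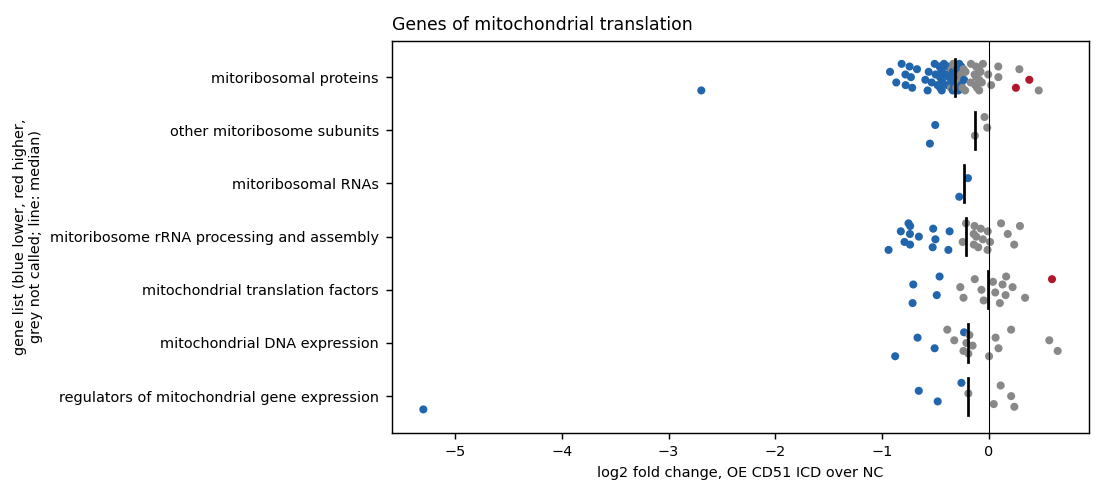
Log2 fold change, OE CD51 ICD over NC, of the mitoribosomal protein genes and of the tested genes of 6 lists of mitochondrial translation and its regulation (1 point a gene; blue lower, red higher, grey did not pass; black bar, median). The mitoribosomal proteins have the lowest median, -0.32, and the point at far left in the lowest row is PPARGC1A, which had 2 counts in OE CD51 ICD.

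Genes that copy and transcribe mitochondrial DNA had 4 of 17 lower (23.5%) and 0 higher (median -0.19), against 25.8% and 25.2% of all tested genes, so the share of lower genes was near that of the whole table. DESeq2, limma-voom and an unadjusted p under 0.05 gave 0 higher as well, the last against at least 25.2% of all tested genes. TWNK, the replicative helicase, fell from 32.6 ± 0.655 to 17.7 ± 0.586 CPM (log2 fold change -0.88 ± 0.11, adjusted p = 1.62e-07), and its locus overlaps MRPL43 on the opposite strand. POLRMT, the mitochondrial RNA polymerase, fell from 136 ± 5.17 to 85.8 ± 6.29 CPM (log2 fold change -0.67 ± 0.08, adjusted p = 1.03e-07). TFAM, which packages mitochondrial DNA and starts its transcription, was at 12.2 ± 3.12 and 10.8 ± 0.381 CPM and did not pass (adjusted p = 0.360). Among 10 nuclear regulators of mitochondrial genes, 9 were tested, of which 4 were lower (44.4%, against 25.8% of all tested genes) and 0 higher (against 25.2%), with a median of -0.19. The number higher was again 0 with DESeq2, limma-voom and an unadjusted p under 0.05, the last against at least 25.2% of all tested genes. PPARGC1A, the coactivator PGC-1 alpha, had 98 counts in NC and 2 in OE CD51 ICD (ratio 46.5, 95% counting interval 12.5 to 389, adjusted p = 1.97e-08). MYC fell from 156 ± 15.5 to 98.8 ± 5.77 CPM (log2 fold change -0.66 ± 0.09, adjusted p = 2.44e-07). NRF1 and PPRC1 were also lower, and GABPA and YY1, factors that bind ETS-type and YY1-type motifs, did not pass (adjusted p = 0.457 and 0.669). The part of any of these regulators in the falls was not tested.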

How the data were processed

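The authors deposited whole-number counts and FPKM values of 58735 genes for 6 ARPE-19 libraries measured by RNA sequencing, each library in a column of its own. Their build was hg38, per the submitters' processing notes. The aligner, counter and strand setting were not given in the sources used here. The deposited FPKM values equalled the counts divided by gene length and by a constant per library, 0.961 to 1.05 times its total. All gene IDs matched GENCODE 29.

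The main test was that of edgeR 4.0.16, run in R 4.3.3 on the counts (filterByExpr, TMM scaling, quasi-likelihood test, two-sided, Benjamini-Hochberg over 13787 genes, called at an adjusted p under 0.05). A standard error is the log2 fold change divided by the square root of the F statistic. CPM use TMM-scaled library sizes, and a level per kb is CPM per 1000 bases of the deposited gene length. Errors are SD over 3 libraries unless marked SE. On simulated counts with 200 of 13787 genes changed, 90% of those with a log2 change of 1 and 98% of those with 2 were recovered. Of the calls, 3.59% were false. In the data 3469 genes were called higher and 3559 lower, and the median over the 78 genes was -0.32. The simulation held no changes that small or that many, and its rates do not cover them. Alternatives used DESeq2 1.42.0, limma 3.58.1 (voom, and log2 FPKM with a pseudocount of 1 or 0.1), other scalings and filters, and loess trends on GC content or length.

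Members and gene lists were chosen with earlier results of these data known. Genes were named by rule: among called members the 8 largest falls and up to 6 largest rises, the 3 most and 2 least abundant per kb in each subunit, members whose name and place disagree with their paralogs, MRPL12, the ribosomal RNAs, and up to 3 per pathway list. DAP3, CHCHD1, PTCD3, TFAM, NRF1, PPRC1, GABPA, YY1 and the chromosome 11 and 19 genes were named after their values were seen. Promoters came from RefSeq (GRCh38.p14); 9 members had no match.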

Additional observations from a re-analysis of the deposited data

How the results depend on the processing

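The number of lower genes, 45, lay between 37 and 54 in the other scalings, filters, tools and trend corrections over all 78 genes. In those settings 12.9% (no low-count filter) to 29.4% (library-size scaling) of all tested genes were lower. With 1 library left out, the number lay between 34 (without OE CD51 ICD replicate 1) and 48 (without NC replicate 3). The shares of all tested genes in these 2 fits were 21.2% and 23.8%. The number of higher genes, 2, was 0 with library-size scaling and 1 without the low-count filter. It was 1 with the GC trend removed (alone or with the replicate block) and 1 off chromosome 11. With 1 library left out it was 0 to 1. Of all tested genes, 2896 of 13787 were higher with library-size scaling and 3467 of 26470 without the filter. With the GC trend alone removed 3125 of 13787 were higher, and with 1 library left out 2985 to 3612. With the GC trend removed the medians were -0.31 (large) and -0.46 (small), and with the replicate block added -0.31 and -0.47. They were -0.22 (large) and -0.33 (small) with the length trend removed. With 1 library left out, the medians ran from -0.25 to -0.34 (large) and -0.31 to -0.40 (small). The change in the large to small ratio, 1.20, was 1.12 without length scaling, 1.07 without the 3 most abundant genes of each subunit, 1.102 without MRPL14 and MRPS34, and 1.18 to 1.23 with 1 library left out. The cause of these shifts was not tested. The GC trend with the replicate block, the limit of 10% on shared exon bases and the reduced ratios were added after the data were seen. Of 35 named genes, 26 kept their direction and their side of the threshold in all settings, and of 665 comparisons 37 lost a call, 4 gained one (MRPL49, MRPS18C, MRPS36) and 0 reversed. The deviations of same-numbered libraries correlated at -0.050, 0.0013 and 0.051, and those of differently numbered libraries at -0.084 to 0.087. With 3 libraries a group these values cannot tell whether same-numbered libraries share a batch or culture. With the replicate block, 2 genes were higher and 46 lower, with medians of -0.30 and -0.35, where 25.8% of all tested genes were lower. Genes under 10 CPM, such as MRPS24, rest on few counts.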
